A study of Mus musculus with 8 samples.

Results

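The genes of fatty acid uptake and binding described here comprise the membrane receptor *Cd36*, 4 fatty acid transport proteins (*Slc27a1*, *Slc27a2*, *Slc27a3* and *Slc27a4*), 4 fatty acid-binding proteins (*Fabp1*, *Fabp2*, *Fabp4* and *Fabp5*) and the acyl-CoA-binding protein *Dbi*. They were picked by gene symbol, and all 10 were found among the 27179 genes of the table, of which 18937 had at least 1 read. RNA was sequenced from bulk liver of adult male C57BL/6NHsd mice that were 12 to 14 weeks old and had been fasted for 6 h. The control group was 4 wild-type mice, and the other group was 4 mice homozygous for V227A, a germline replacement of valine by alanine in *Ppara*, the gene of the nuclear receptor PPARα. The variant was made by adenine base editing of zygotes, and the colony descends from 1 heterozygous founder that was backcrossed and then kept through heterozygous crosses. Mice of the colony ate chow or a Western diet, and which of these the sequenced mice ate is not given in the sources used here. Liver was sequenced to ask which transcripts respond to the variant.

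Long-chain fatty acids reach hepatocytes bound to plasma albumin and cross the plasma membrane in part with the help of proteins such as CD36 and the SLC27 family. SLC27 proteins, also known as fatty acid transport proteins, join uptake to activation, because many of them attach coenzyme A to the fatty acid. Inside the cell, small fatty acid-binding proteins carry free fatty acids through the cytosol, and acyl-CoA-binding protein carries the activated form toward oxidation, esterification or elongation. PPARα is activated by fatty acids in hepatocytes, and *Cd36*, *Slc27a1* and *Fabp1* are among its known target genes in mice.

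The level used for every gene was the average log2 CPM computed by the authors, where CPM is the read count of a gene scaled to a library of 1000000 reads. This average runs over all 8 libraries of both genotypes and gives 1 value per gene, so neither a spread between mice nor a difference between genotypes can be given from it. The mean library held an estimated 27474001 effective reads, and the median gene with reads had 100.1 reads per library. The 95% intervals given with levels are Poisson intervals on these estimated reads and cover counting error only. Because a longer transcript gives more reads, levels of different genes were compared as CPM per kilobase of the longest coding transcript.

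The liver label was first held against markers of hepatocytes, and all 8 of them had reads. Their summed level was 110989 CPM. The most abundant was *Alb*, the gene of serum albumin, which held rank 1 of all genes both by CPM and by CPM per kilobase. The lowest of the 8 per kilobase was *Apob*, the structural protein of very low density lipoprotein, at 208 CPM per kilobase. The hepatocyte markers thus lay far above the median gene, which had 1.65 CPM per kilobase.

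Across the 10 uptake and binding genes the level spanned more than 4 orders of magnitude. *Fabp1* stood highest at 11348 CPM per kilobase and *Slc27a3* lowest at 0.337, a ratio of 33696. Between them, from high to low, came *Dbi*, *Slc27a2*, *Fabp2*, *Slc27a4*, *Fabp5*, *Fabp4*, *Slc27a1* and *Cd36*. Of the 10 genes, 9 lay above the median gene with reads, both by CPM and by CPM per kilobase. With the longest coding transcripts the median of the 10 genes was 12.6 CPM per kilobase, and it shifts with the length used. That of the genes with reads and a known transcript length was 1.65. Together the 10 genes took 0.963% of the summed CPM, and *Fabp1* alone took 0.626%.

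**Figure D1:**
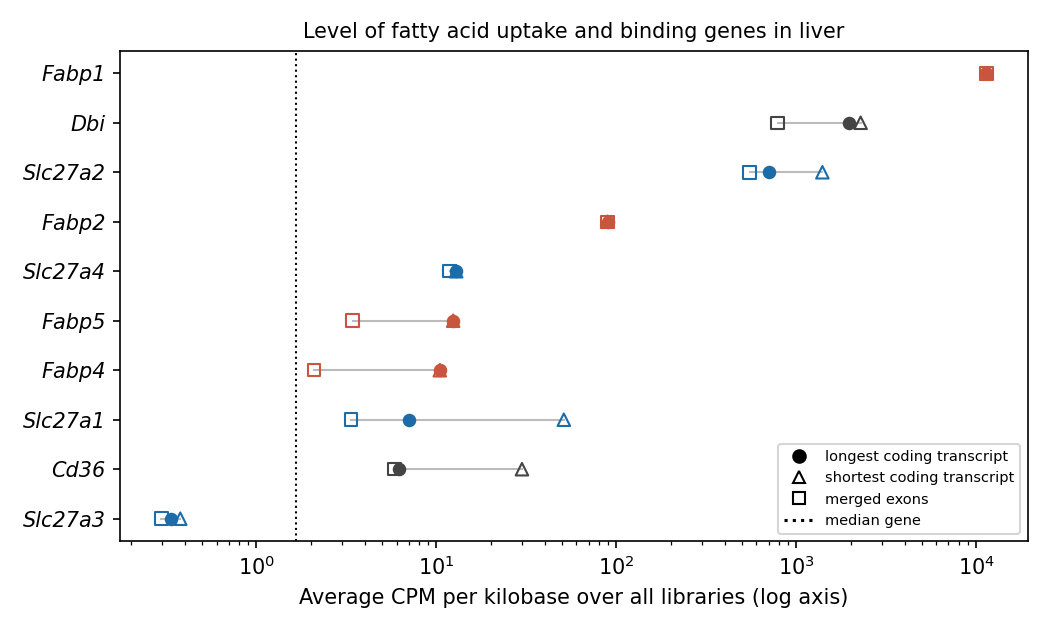
Average level of the 10 uptake and binding genes over all 8 libraries, in CPM per kilobase on a log axis, computed with the length of the longest coding transcript (filled circles), the shortest coding transcript (open triangles) or all merged exons (open squares), where red marks Fabp genes, blue Slc27 genes and grey *Cd36* and *Dbi*. The dotted line is the median gene with reads at 1.65, computed with the longest coding transcripts. All genes but *Slc27a3* lie above this line with each of the 3 lengths.

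In this order only *Slc27a4* and *Fabp5* could not be told apart by counting error, with overlapping intervals of 12.6 to 13.1 and 11.9 to 12.9 CPM per kilobase. With the longest coding transcripts the widest gap between neighbours was that of *Cd36* over *Slc27a3*, at 18.3 times. The next widest was *Slc27a2* over *Fabp2*, at 7.91 times, followed by *Fabp2* over *Slc27a4* at 6.94 times. With either other length *Cd36* and *Slc27a3* were no longer neighbours, and *Fabp4* stood next above *Slc27a3*. The ratio of *Cd36* to *Slc27a3* was 79.2 with the shortest coding transcripts and 19.7 with merged exons. *Slc27a2* and *Fabp2* stayed neighbours, with a gap of 15.6 times with the shortest coding transcripts and 6.15 times with merged exons. With merged exons the widest gap between neighbours was that of *Fabp1* over *Dbi*, at 14.4 times, followed by *Fabp2* over *Slc27a4* at 7.55 times. *Fabp1*, *Dbi*, *Slc27a2* and *Fabp2* took the first 4 places, in this order, with each of the 3 lengths. The places of *Slc27a4*, *Fabp5*, *Fabp4*, *Slc27a1* and *Cd36* were not fixed, since all 5 moved with the shortest coding transcript and 3 of them, *Fabp5*, *Fabp4* and *Cd36*, with merged exons.

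*Cd36*, the scavenger receptor that binds long-chain fatty acids at the plasma membrane, had a modest level among these genes, and its place depended on the length used. Its average was 4.39 log2 CPM, or 21.0 CPM (95% interval 20.4 to 21.6), from an estimated 574 reads per library. By CPM it exceeded 74.5% of the genes with reads. At 6.17 CPM per kilobase only *Slc27a3* of the 10 was lower, whereas by CPM, with the shortest coding transcripts and with merged exons it took place 6. Per kilobase of the longest coding transcripts *Slc27a2* stood 115 times higher, and 46.7 times with the shortest ones. The shortest coding transcript of *Cd36*, of 702 bases instead of 3399, would put it at 29.9 CPM per kilobase. In bulk tissue, fewer cells of a type and less RNA per cell cannot be told apart, which holds for every level given here.

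Of the SLC27 transporters, *Slc27a2* was by far the most abundant of the 4 described. It encodes FATP2, a transporter that also activates very long chain fatty acids. Its level was 11.01 log2 CPM, or 2061 CPM (95% interval 2055 to 2067), which ranked 67 among all genes. Per kilobase its level was 706 CPM, and 1395 with its shortest coding transcript. A long noncoding gene on the opposite strand, *Gm26697*, shares 419 exonic bases with it. The libraries kept strand information, but the strand setting of the counting is not given in the sources used here, so reads of this overlap are uncertain.

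*Slc27a4*, which encodes FATP4, the main transporter of this family in the intestine, followed at 52.2 CPM (95% interval 51.2 to 53.2), or 12.9 CPM per kilobase. *Slc27a2* exceeded it 54.9 times per kilobase, and 108 times with the shortest coding transcripts. *Slc27a1*, which encodes FATP1, the insulin-responsive transporter of muscle and fat, reached 19.6 CPM (95% interval 19.0 to 20.2). Per kilobase its level was 7.01 CPM, which is 1.84 times below *Slc27a4*, or 3.52 times below it with merged exons. With the shortest coding transcript of *Slc27a1*, only 384 bases long, this order turned over, and *Slc27a1* had 51.0 CPM per kilobase.

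*Slc27a3* was the only member under the median gene. Its protein has acyl-CoA synthetase activity, and its role in transport is less well defined. It had −0.39 log2 CPM, or 0.761 CPM (95% interval 0.655 to 0.880), and 35.7% of the genes with reads were lower. This rests on an estimated 18.9 reads per library, so the gene was detected, but its level is the least precise of the 10.

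The family has 6 genes in the mouse, and their summed level per kilobase was shared very unevenly. *Slc27a2* took 57.5% of it and *Slc27a5*, the bile acyl-CoA synthetase FATP5 of liver, took 40.8%. *Slc27a4* accounted for 1.05%, *Slc27a1* for 0.571%, *Slc27a3* for 0.0274% and *Slc27a6*, a transporter known from heart, for 0.00698%. Nearly all SLC27 transcript in these livers thus belonged to a pair of genes. *Slc27a2* was the higher of the pair with the longest coding transcripts and with merged exons, at 1.41 and 1.17 times *Slc27a5* per kilobase. Only with the shortest coding transcripts was *Slc27a2* lower, at 0.710 times *Slc27a5*. That transcript of *Slc27a5* has 584 bases instead of 2288, too few to encode the 689 residues of its protein.

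The fatty acid-binding proteins were dominated by *Fabp1*, the liver form, which is known to bind a pair of fatty acids in a single pocket and to be among the most abundant cytosolic proteins of hepatocytes. Its level was 12.62 log2 CPM, or 6275 CPM (95% interval 6265 to 6286), from an estimated 172409 reads per library. It ranked 17 of all genes by CPM and 8 by CPM per kilobase. Against *Alb* its level per kilobase was 0.332 times as high. *Fabp1* therefore stood within the range of the hepatocyte markers themselves. The gene has a single annotated transcript of 553 bases, so its level does not depend on the choice of length.

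*Fabp2*, the intestinal form, which binds 1 fatty acid, was also clearly present in liver. It had 6.43 log2 CPM, or 86.2 CPM (95% interval 85.0 to 87.4), above 92.5% of the genes with reads. Its level of 89.3 CPM per kilobase made it the second member of its family, although *Fabp1* was 127 times higher. An antisense gene, *4933405D12Rik*, overlaps *Fabp2* with 0 shared exonic bases and had only 0.168 CPM.

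*Fabp5*, the epidermal form, and *Fabp4*, the form of adipocytes and macrophages, came next at similar levels. *Fabp5* had 12.2 CPM (95% interval 11.8 to 12.7) and *Fabp4* had 9.35 CPM (95% interval 8.95 to 9.76). Per kilobase they had 12.4 and 10.4 CPM, and *Fabp5* was 1.19 times higher, a gap beyond counting error. With all annotated exons merged these levels dropped to 3.43 and 2.08 CPM per kilobase. For *Fabp4* the merged exons cover the whole gene span, 4489 bases against 896 in its coding transcript. The level of *Fabp5* is also uncertain because 21.1% of the 50-base windows of its transcript occur in other annotated genes, most of them in *Gm6166* with 19.6%.

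Of the summed level per kilobase of the 10 genes of this family, *Fabp1* took 99.0%. *Fabp2* took 0.779%, *Fabp5* 0.108% and *Fabp4* 0.0911%. *Fabp7*, the brain form, was detected with 45.1 reads per library, and at 1.95 CPM per kilobase it lay near the median gene, with a share of 0.0170%. The remaining family members had very few reads or none. *Fabp12* had an estimated 1.25 reads per library, and *Fabp3* of heart and muscle, *Fabp6*, which binds bile acids in the ileum, and *Fabp9* of testis had fewer than 1. *Pmp2*, the myelin form, had 0 reads, which allows up to 0.0136 CPM at 3 reads over the 8 libraries. Pooled over the family, transcripts of forms other than *Fabp1* were thus a small fraction in these livers.

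*Dbi*, which encodes acyl-CoA-binding protein and is also known as diazepam-binding inhibitor, was the second most abundant of the 10 genes per kilobase. Its level was 10.13 log2 CPM, or 1117 CPM (95% interval 1112 to 1121), and it ranked 118 by CPM and 39 by CPM per kilobase. At 1963 CPM per kilobase it was 5.78 times below *Fabp1* and 2.78 times above *Slc27a2*. The latter ratio was 1.63 with the shortest coding transcripts and 1.43 with merged exons, and with merged exons *Fabp1* was 14.4 times *Dbi*. With merged exons its level fell to 785 CPM per kilobase, still between the same neighbours. The 6 other acyl-CoA-binding genes listed, *Acbd3* to *Acbd7* and *Dbil5*, were lower than *Dbi* with each of the 3 lengths. All 6 had reads, with a summed level of 198 CPM. Highest per kilobase was *Acbd4* at 27.3 CPM, followed by *Acbd5*, which tethers peroxisomes to the endoplasmic reticulum, at 18.6. With the shortest coding transcripts *Acbd5* passed *Acbd4*, at 184 against 130.5 CPM per kilobase, and *Dbi* exceeded *Acbd5* 12.4 times rather than 105 times. *Acbd6* had 6.09 and *Acbd3* of the Golgi had 4.96 CPM per kilobase. *Dbil5*, a form of testis, had 6.05 reads per library and *Acbd7* had 0.127.

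Genes of the steps that follow uptake were read as lists beside the members, and the highest and lowest gene of a list is that per kilobase of the longest coding transcripts. Over the 16 lists of related genes and cell type markers, the highest gene was the same with all 3 lengths in 11 and the lowest in 7.

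All 5 long-chain acyl-CoA synthetases, which activate fatty acids inside the cell, had reads, with a sum of 1405 CPM. *Acsl1*, the main form of liver and fat, was highest at 250 CPM per kilobase, and *Acsl6*, a form of brain, was lowest at 0.0575. Their median of 5.10 CPM per kilobase was below that of the uptake and binding genes. *Acsl1* lay far above this median, and so did *Acsl5* at 92.3 CPM per kilobase. Per kilobase *Acsl1* was 0.354 times *Slc27a2*, and 0.169 times with merged exons, although with the shortest coding transcripts it was 2.04 times higher. Only this shortest length, which for *Acsl1* is 343 bases instead of 3897, put *Acsl1* above *Slc27a2*. Which transcripts these livers used was not measured.

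For entry into oxidation, all 6 genes described had reads and none was under 1 CPM. Of these 6, *Acadvl*, the very long chain acyl-CoA dehydrogenase of mitochondria, was highest at 279.8 CPM per kilobase, and *Cpt2*, the inner carnitine palmitoyltransferase of mitochondria, was lowest at 66.5. With the shortest coding transcripts *Cpt1a*, the outer carnitine palmitoyltransferase, was highest at 702 CPM per kilobase. *Slc25a20*, the carnitine carrier, was lowest with the shortest ones at 102 and with merged exons at 37.6. For entry into triglycerides, all 7 genes had reads. *Dgat2*, which adds the last acyl chain, was highest at 237 CPM per kilobase, and *Gpam*, which adds the first, was lowest at 5.35, or *Dgat1* at 14.2 with the shortest coding transcripts. With the longest coding transcripts, the median level per kilobase was 107 CPM for these oxidation genes and 73.4 for the triglyceride list. That of the uptake and binding genes was 12.6. These medians shift with the length used.

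Among the nuclear receptors of the PPAR and RXR families and the coactivator *Ppargc1a*, all 7 had reads. *Ppara*, the gene that carries the variant, was highest per kilobase of the longest coding transcripts at 97.2 CPM. *Rxra*, which encodes a partner of PPARα on DNA, was next at 86.5. With the shortest coding transcripts *Rxra* was higher, at 676 CPM per kilobase against 161 for *Ppara*. That transcript of *Rxra* has 628 bases instead of 4905. With merged exons *Ppara* was higher, at 86.5 against 77.7 CPM per kilobase, so the order of these partners turned over only with the shortest length. *Ppargc1a* was lowest at 1.08 CPM per kilobase, or *Rxrg* at 3.21 with the shortest coding transcripts. The median of this list was 2.93 with the longest ones. *Ppara* was below *Fabp1*, *Dbi* and *Slc27a2* per kilobase with each of the 3 lengths.

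Some of the members are known mainly from other tissues or cell types, so marker lists of those were read beside them. For *Fabp4*, the adipocyte list is the closest, and all 7 of its genes had reads, 4 of them under 1 CPM, with a sum of 17.3 CPM. Its most abundant gene per kilobase was *Cidec*, a lipid droplet protein that liver can also express, at 4.02 CPM, and its lowest was *Lep*, the gene of leptin, with 0.254 reads per library. *Adrb3*, the β3-adrenergic receptor, followed *Cidec* at 2.87 CPM per kilobase, and *Cfd*, the gene of adipsin, had 1.84. *Adipoq*, the gene of adiponectin, had 6.88 reads per library, and *Fabp4* stood 41.7 times higher per kilobase, or 17.4 times with the shortest coding transcripts and 8.90 times with merged exons. The list was thus divided, with *Cidec*, *Adrb3* and *Cfd* above 1 CPM and *Adipoq*, *Lep*, *Plin1* and *Retn* below it. Whether *Fabp4* exceeded the highest of these markers depended on the length used. It was above *Cidec* with the longest coding transcripts, below it with the shortest ones (10.4 against 18.4 CPM per kilobase) and below it with merged exons (2.08 against 3.72). Both reversals rest on unusual lengths. The shortest coding transcript of *Cidec* has 376 bases instead of 1720. The merged exons of *Fabp4* cover its whole gene span of 4489 bases, against 896 in its coding transcript. What adipocytes contribute to the level of *Fabp4* was not tested.

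*Fabp4* and *Cd36* are also known from endothelial cells and macrophages, and both lists were well represented. All 8 endothelial markers had reads, with a sum of 186 CPM and *Clec4g* of sinusoidal endothelium highest at 26.3 CPM per kilobase, or *Stab1* at 107 with the shortest coding transcripts. The lowest per kilobase was *Kdr*, a receptor of vascular endothelial growth factor, at 1.94. All 8 markers of Kupffer cells and macrophages had reads, with a sum of 196 CPM. *Clec4f* was highest at 33.2 CPM per kilobase, or *Csf1r* at 60.3 with the shortest coding transcripts. *Adgre1*, which encodes the F4/80 antigen, was lowest at 1.47, or *Timd4* at 1.93 with the shortest coding transcripts. *Fabp4* and *Cd36* lay inside the range of both lists. With the longest coding transcripts they also lay inside those of the stellate and cholangiocyte markers given below, so this place was not particular to endothelial cells or macrophages. What these cells contribute to the levels of *Fabp4*, *Fabp5* and *Cd36* was not tested.

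For *Fabp2* the enterocyte list is the closest. Of its 7 genes 4 had reads, and *Sis*, *Alpi* and *Cdx2*, which define the intestinal epithelium, had 0. The sum of 125 CPM came almost wholly from *Apoa4*, an apolipoprotein also made by mouse liver, at 68.6 CPM per kilobase. The fewest reads among these 4 were those of *Cdh17*, an intestinal cadherin, at 0.125 per library. *Lct*, the gene of lactase, had 0.622 and was lowest per kilobase, except where the small constant that the average adds to every gene, the prior count, was subtracted, and *Cdh17* was lowest. What enterocytes contribute to the level of *Fabp2* was not tested.

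The other lists cover further cell types of a liver sample. Stellate markers summed to 154 CPM, with *Dcn* highest at 56.7 CPM per kilobase and *Hgf* lowest at 0.298. Cholangiocyte markers summed to 35.6 CPM, with *Spp1* highest at 15.9 CPM per kilobase and *Krt7* lowest at 0.321. The 5 muscle markers were all under 1 CPM and summed to 2.09 CPM, with *Acta1* highest and *Myh1* lowest. Red blood cell markers, 4 of 5 of which were in the table, summed to 231 CPM, with *Hbb-bs* highest at 124 CPM per kilobase and *Hba-a2* lowest at 7.28. What any of these cell types contribute to the levels of the members was not tested.

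**Figure D2:**
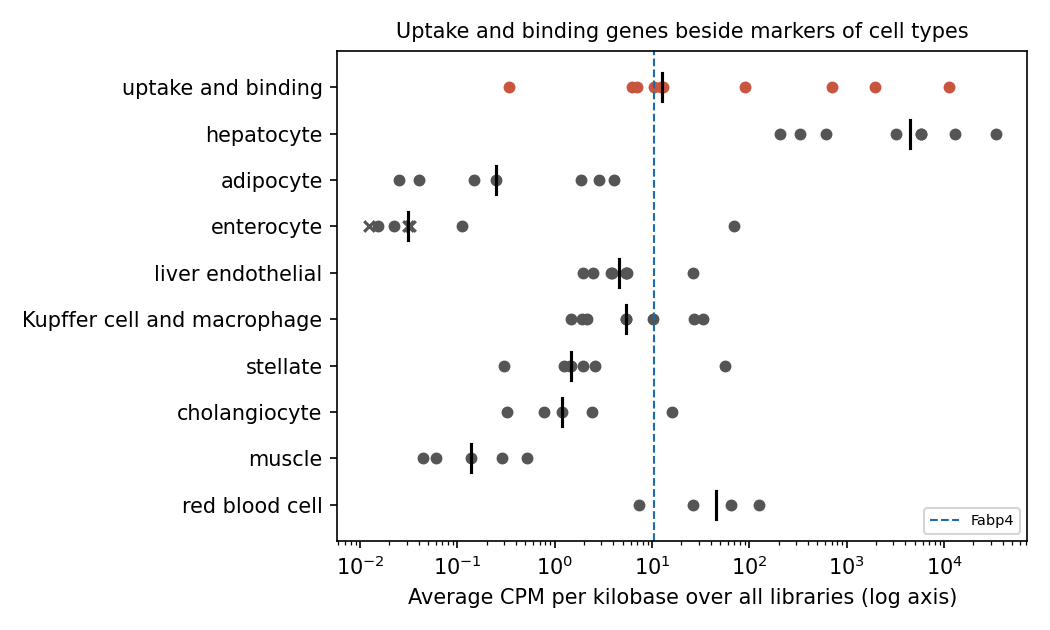
Average level over all 8 libraries of the uptake and binding genes (red) and of 9 lists of cell type markers (grey), in CPM per kilobase of the longest coding transcript on a log axis, where each point is a gene, a cross is a gene without reads drawn at the floor and a vertical bar is the median of the list. The dashed line is *Fabp4* at 10.4, above the 7 adipocyte markers with this length, the highest of which is *Cidec* at 4.02, whereas *Cidec* is above *Fabp4* with the shortest coding transcripts and with merged exons.

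The genes lie on 6 chromosomes of the GRCm38 build, as placed by GENCODE. *Cd36* spans 107112 bases of chromosome 5 (17781690 to 17888801, minus strand), with 6 annotated coding transcripts, the longest of 15 exons. *Slc27a2* (126552407 to 126588243) and *Slc27a4* (29802634 to 29817522) are both on the plus strand of chromosome 2. *Slc27a1* is on chromosome 8 (71568882 to 71587302, plus strand), and *Dbi* is on chromosome 1 (120113280 to 120121078, minus strand). *Slc27a3* (90385239 to 90389938, minus strand) is on chromosome 3. The transporter genes of this set are therefore scattered, with no close neighbours among them.

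The binding proteins showed a closer arrangement. *Fabp5* (10012548 to 10016607, plus strand) and *Fabp4* (10204088 to 10208576, minus strand) belong to a cluster on chromosome 3 that also holds *Pmp2*, *Fabp9* and *Fabp12*, 5 genes within 288636 bases. *Fabp2* is on the same chromosome but far from the cluster (122895072 to 122899506, plus strand), and *Fabp1* is on chromosome 6 (71199827 to 71205023, plus strand). The longest coding transcript of each of these 4 members has 4 exons. Within the cluster only *Fabp5* and *Fabp4* had more than 2 reads per library.

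The proteins of these genes were compared by global alignment of the translated coding sequences, and identity was taken over the aligned residues. The 4 binding proteins have 127 to 135 residues, and identity over the 6 pairs ran from 27.4% for *Fabp1* and *Fabp5* to 50.8% for *Fabp4* and *Fabp5*. Cluster genes with few or no reads were closer still to *Fabp4*, at 65.2% for *Pmp2*, 59.1% for *Fabp9* and 55.3% for *Fabp12*. The 4 transporters have 620 to 667 residues, and their identity ran from 39.9% for *Slc27a2* and *Slc27a4* to 61.3% for *Slc27a1* and *Slc27a4*. *Slc27a2* and *Slc27a5*, the abundant pair, were 43.3% identical, so the closest relatives were not the most abundant genes.

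At the level of transcripts, shared sequence was rare outside *Fabp5*. Of the 50-base windows of the *Dbi* transcript 2.69% occur in *Gm12222*, and 1.75% of those of *Slc27a1* occur in 98 other genes. The other 7 members had 0 shared windows. Reads made ambiguous by shared sequence are thus a concern mainly for *Fabp5*. These windows do not cover the overlap of *Slc27a2* with *Gm26697*, whose reads remain uncertain.

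Promoters were read because PPARα binds, together with RXR, to a direct repeat with 1 spacer base, written here as DR1 and spelled AGGTCANAGGTCA. The RefSeq promoter table for GRCm38.p6, with 250 bases before and 50 after a start, held 8 of the 10 members in 11 windows, while *Fabp4* and *Fabp5* were without an entry. Both strands were searched. With at most 1 mismatch, DR1 was found in 0.554% of all 32851 windows and in 1 of the 11, that of *Fabp1*. With at most 2 mismatches it was in 3.86% of all windows and in 2 of the 11, those of *Fabp1* and *Cd36*. With 3 mismatches allowed, 24.6% of all windows held a match, and 4 of the 11 did.

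The *Fabp1* match lies 67 to 55 bases before the start on the strand opposite to the gene and differs from DR1 by T4C, counted from 1 at the 5′ end of the motif. The *Cd36* match lies 63 to 51 bases before the start, also on the opposite strand, and differs by G2A and T11C. Both stretches are shown because they hold the closest matches among the members, and the capitals mark the match as it reads on the strand of the gene. The stretch of *Fabp1*, at chr6:71199629-71199826 on the plus strand, stops where the GENCODE exon begins, which is upstream of the RefSeq start from which positions are counted. That of *Cd36*, at chr5:17835897-17836146 on the minus strand, lies within the span of the gene, before a downstream start, and holds no annotated exon.
Fabp1: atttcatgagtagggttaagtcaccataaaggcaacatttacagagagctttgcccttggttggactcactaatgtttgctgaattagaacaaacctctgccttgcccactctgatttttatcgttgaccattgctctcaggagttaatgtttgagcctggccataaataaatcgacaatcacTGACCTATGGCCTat
Cd36: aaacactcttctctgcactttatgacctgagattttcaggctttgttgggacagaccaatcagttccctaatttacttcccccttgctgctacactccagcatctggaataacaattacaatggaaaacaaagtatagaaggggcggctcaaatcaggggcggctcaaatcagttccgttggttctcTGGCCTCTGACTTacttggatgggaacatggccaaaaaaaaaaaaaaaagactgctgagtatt
The matches describe these letters only, and binding of the receptor was not measured in these data.

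A single repeat, AGGTCA, which every exact DR1 contains, was in 16.3% of all windows and in 3 of the 11, those of *Fabp1*, *Cd36* and *Slc27a2*. The letters TATAAA were in 13.6% of all windows and in 1 of the 11, that of *Fabp1*, 30 bases before its RefSeq start. Median GC content was 60.3% over the 11 windows and 52.7% over all windows. It ran from 38.7% for *Fabp2* to 65.7% for 1 of the 3 starts of *Slc27a1*. Low GC content was thus shared by the windows of *Fabp2*, *Cd36* and *Fabp1*, at 38.7%, 43.0% and 45.0%, while the other 8 windows ran from 56.3% upward.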

How the data were processed

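Stranded poly-A libraries of 8 livers were sequenced as paired ends. Per the submitters' processing notes, reads were handled with Trimmomatic, FastQC, STAR (GRCm38) and featureCounts, without versions. The authors then ran edgeR, and the deposited table gives their average log2 CPM per gene over all libraries. Its 4 other value columns hold the authors' genotype comparison (fold change, F statistic, p-value and FDR), which was not used. With 0 columns of values per library, the planned genotype test was left out.

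The lowest average, −3.78 log2 CPM in 8242 genes, was taken as 0 reads plus an assumed prior count of 2, which gave the library size and reads per gene. Of 2378 genes under 5.5 reads in total, 99.9% came within 0.1 of a whole number. The recovery was tested on simulated data of 5000 genes made with the same prior count. Genes with few or no simulated reads were left out, and 95% of the other recovered averages had an error under 2.61%. This error does not cover genes with few reads, such as *Slc27a3*. CPM is 2 to the power of the average, prior count included. A length was known for 91.4% of genes with reads.

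Lengths, places and coding sequences came from GENCODE vM21. The planned RefSeq proteins were replaced by translated coding sequences, aligned globally with BLOSUM62 (gap opening 10, extension 0.5). Members and lists were chosen with earlier results of these data known. All members and family genes are named, and of each other list the genes of highest and lowest level per kilobase and those without reads. Other genes of these lists (among them *Adipoq*, *Adrb3*, *Rxra* and *Cdh17*), and the use of other lengths on the lists, were chosen after the values were seen. A gene of the oxidation list is not reported here, and its list was summarized without it. Motifs were chosen after the data were seen. Alternatives changed the length, the prior count or the background genes. Python 3.11.15, pandas 2.3.3, numpy 2.4.6, scipy 1.17.1, Biopython 1.88 and matplotlib 3.10.9 were used.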

Additional observations from a re-analysis of the deposited data

How the results depend on the processing

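*Fabp1* was the highest and *Slc27a3* the lowest of the 10 genes per kilobase under each length and with the prior count subtracted, with ratios from 30072 to 38320. The order between them changed for 5 members with the shortest coding transcript and for 3 with merged exons, as follows from the lengths. The share of *Fabp1* in its family was 98.3% with no length correction. That of *Slc27a2* was 40.7% with the shortest coding transcripts, where *Slc27a5* passed it, and 62.8% with no length correction. Single levels per kilobase changed by over 1.5 times for 3 members with the shortest transcript, up to 7.28 times for *Slc27a1*, and for 4 with merged exons. Subtracting the prior count changed none by that much, with *Slc27a3* moving most, to 0.688 CPM. Of the 10 members, 9 stayed above the median among protein-coding genes, and 7 by CPM among genes of at least 0 log2 CPM.

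Levels are averages of both genotypes, so spread between mice was not measured. No paired analysis was possible because the table used has no values per library. For the same reason DESeq2, its size factors, a low-count filter and leaving out single mice were not run. Depth limits mainly *Slc27a3* and genes with few reads. Transcript use in these livers was not measured, so levels per kilobase rest on annotated lengths.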
